A study of Mus musculus with 6 samples.

Results

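The 9 genes described here are the upstream myogenic factors *Pax3* and *Pax7*, the homeobox genes *Six2*, *Six4* and *Six5*, and their coactivators *Eya1*, *Eya2*, *Eya3* and *Eya4*, chosen by name. Of these, 7 are among the 23231 genes with counts in at least 1 of 6 RNA-Seq libraries. C2C12 cells are mouse myoblasts that form multinucleated myotubes in low serum. All cells carried dCas9-KRAB, a nuclease-dead Cas9 joined to a repressor domain, after lentiviral transduction (multiplicity of infection 100) and selection in 2 µg/ml puromycin, and RNA was taken on day 5 in 2% horse serum. The 3 dCas9-KRAB libraries, here the control libraries, had no enhancer sgRNA, and the 3 dCas9-KRAB-En5 libraries, here the En5 libraries, had 2 sgRNAs against Myog-En5, a putative enhancer upstream of *Myog*. Whether the cells of a library came from a separate transduction is not given in the sources used here, so p-values measure the spread between these libraries, which may be technical.

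In embryonic muscle, Pax3 and Pax7 are paired-box factors that mark muscle progenitors, and Pax7 is the classic marker of adult satellite cells. Six4 and Six5 bind DNA through a homeodomain, and Eya proteins are coactivators that bring a transactivation domain and a phosphatase but do not bind DNA themselves. These factors act upstream of the muscle bHLH genes *Myf5*, *Myod1* and *Myog*. The comparison asks whether this upstream tier differed when the *Myog* enhancer was repressed.

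The protospacers of the sgRNAs define the difference between the groups and are shown for that reason, each 5′ to 3′ with the PAM in capitals. Myog-En5-sgRNA1 matched GRCm38 chr1:134283252-134283274 on the plus strand and Myog-En5-sgRNA2 chr1:134283558-134283580 on the minus strand, 6715 and 6409 bp before the start of *Myog*.
Myog-En5-sgRNA1: gaaggggttactgtcggcagAGG
Myog-En5-sgRNA2: gaccggaagattgaaccactGGG

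The libraries held 31831093 to 73988425 counts, the medians being 66910018 for control and 35388411 for En5. *Myog*, the gene beside the targeted enhancer, had 43211, 68488 and 74845 counts in control and 12, 0 and 0 in En5 libraries. En5 replicate 3 stood apart, with 13991 genes listed against 17084 to 19395 elsewhere and 24.9% of its counts in ribosomal protein genes against 10.9% to 19.9%. The 7 skeletal muscle markers summed to 2685 to 7715 TPM (counts per gene length, scaled to 1000000) in control and to 8.19 to 15.7 TPM in En5 libraries, with 6 of 7 lower, so the defining muscle genes of the labelled line were nearly absent from the latter. The 14 macrophage markers summed to 3560 to 4231 TPM in control and 5142 to 5848 TPM in En5 libraries, with 1 of 12 tested higher (*Adgre1*), *C1qa* at 0 in all En5 libraries, and 3 higher and 1 lower without En5 replicate 3 but 0 when any other library was left out. The 11 mesenchymal markers summed to 73.2 to 209 and to 21.0 to 40.1 TPM, with 2 of 8 tested lower, a count of 0 to 3 when a library was left out. Over all genes tested, 4.67% were lower and 1.52% higher, and without En5 replicate 3 these shares were 14% and 11.7%. The part of these markers in the values below was not tested, and bulk RNA cannot tell fewer cells of a type from less RNA per cell.

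Apart from *Eya3*, the upstream factors had at most 3.44 TPM in any library. The 6 testable members did not pass the test for differential expression in either direction. Of the 9 members, 7 had counts in at least 1 library, and 6 or 7 were listed in each library. *Six2* and *Eya2* were listed in none, and *Pax7* had at most 5 counts. *Eya3* was the highest member in 6 of 6 libraries, with 3.0 to 20.4 TPM. The 9 members summed to between 6.43 and 13.0 TPM in control and between 4.24 and 24.5 TPM in En5 libraries. In TPM the groups overlapped for each of the 7 listed members.

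**Figure D1:**
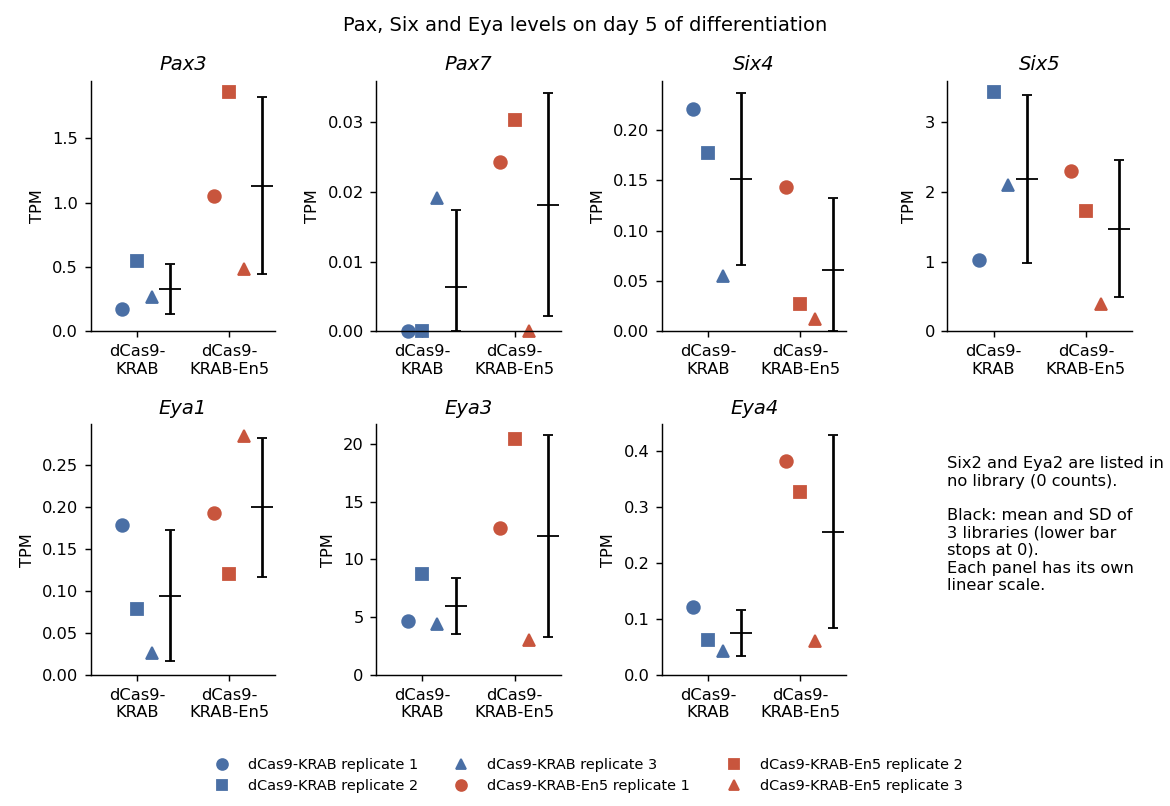
TPM (linear axis, own scale per panel) of each member with counts in the 3 control (blue) and 3 En5 (red) libraries, with the mean and SD of each group in black. The 2 groups overlap in every panel, and *Eya3* reaches 20.4 TPM while *Pax7* stays at or below 0.0302 TPM.

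*Pax3* (ENSMUSG00000004872, GRCm38 chr1:78101267-78197134, minus strand) was the member with the largest difference relative to its spread. It had 29, 126 and 74 counts in control replicates 1 to 3 and 138, 195 and 69 in En5 replicates 1 to 3. In TPM these were 0.173, 0.544 and 0.267 against 1.05, 1.86 and 0.487, so En5 replicate 3 lay below control replicate 2. The means were 0.328 ± 0.193 (SD, n = 3) and 1.13 ± 0.689 TPM (SD, n = 3; exact permutation test, two-sided, p = 0.2, with 0.1 the smallest p that 3 against 3 allow). Scaled by TMM, which corrects library totals for composition, the CPM (counts scaled to 1000000 per library) were 0.695, 1.84 and 1.08 against 2.96, 4.52 and 2.97, and the groups did not overlap. Such separation upward on this scale was seen in 15.4% of all genes tested, and downward in 20.2%. It was reached by 1 of the 6 tested members.

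The log2 fold change of *Pax3*, En5 over control, was 1.52 (standard error 0.63, 95% interval 0.14 to 2.91), or 2.88-fold. Its unadjusted p was 0.0338 in edgeR's quasi-likelihood test, and the Benjamini-Hochberg adjusted p over 14378 genes was 0.118. A fit that blocked by replicate number gave 1.60 (adjusted p = 0.0832, edgeR), and without En5 replicate 3 it was 1.54 (adjusted p = 0.0506, edgeR). Leaving out any other library gave 1.19 to 1.95 with a higher adjusted p, between 0.139 without control replicate 2 and 0.371 without En5 replicate 2 (edgeR). Of the 6 fits that left out a library, those without control replicate 2 or En5 replicate 3 kept its unadjusted p under 0.05. *Pax3* was higher in 3 of 3 same-numbered pairs of libraries on the TMM scale, and so were *Eya3* and *Eya4*. The difference in *Pax3* was therefore a positive estimate that did not pass the cutoffs used here. These were an adjusted p of 0.01 or less with a log2 fold change of 1 or more in size.

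*Pax7* (ENSMUSG00000028736, chr4:139737062-139833528, minus strand) had 0, 0 and 5 counts in control and 3, 3 and 0 in En5 libraries. A limit of 3 counts was worth 0.0405 CPM in the deepest and 0.0942 CPM in the shallowest library, and such limits cover counting error only. *Pax7* was thus at or near the floor in all libraries, did not pass the low-count filter, and no fold is given for it. *Pax3* made up 93.3% to 100% of the summed Pax3 and Pax7 TPM in each library.

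*Six5* (ENSMUSG00000040841, chr7:19094594-19098549, plus strand) was the most abundant of the 3 homeobox members, holding 82.3% to 98.5% of the summed TPM of *Six2*, *Six4* and *Six5* in each library. Its counts were 84, 387 and 283 in control and 147, 88 and 27 in En5 libraries. The TPM were 1.03, 3.44 and 2.10 against 2.31, 1.73 and 0.392, and control replicate 1 lay among the En5 libraries. Its log2 fold change was -0.89 (standard error 0.63, 95% interval -2.27 to 0.50, edgeR adjusted p = 0.357), so that neither a decrease to 0.207-fold nor an increase to 1.41-fold lay outside the interval.

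*Six4* (ENSMUSG00000034460, chr12:73099609-73113456, minus strand) encodes a homeobox factor of muscle progenitors in the mouse embryo. Its counts were 65, 72 and 27 in control and 33, 5 and 3 in En5 libraries. The TPM were 0.221, 0.177 and 0.0555 against 0.143, 0.0272 and 0.0121. En5 replicate 1 lay above control replicate 3, while replicate 3 of En5 was at the limit of 3 counts. The estimated log2 fold change was -1.62 (standard error 1.00, 95% interval -3.81 to 0.58, edgeR adjusted p = 0.287), and *Six4* was lower in 3 of 3 same-numbered pairs. Some 50-base words of its exons, 0.459%, also occur in exons of other genes, which was the case for 0.275% in *Pax3* and for none in *Six5*, *Eya1*, *Eya3* and *Eya4*.

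*Six2* (ENSMUSG00000024134, chr17:85684277-85688274, minus strand), known mainly from kidney progenitors, had 0 counts in 6 of 6 libraries. With 0 counts the limit of 3 counts allows at most 0.0942 CPM in the shallowest library and 0.0405 CPM in the deepest. Its level was therefore not detectable at this depth in either group.

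Among the coactivators, *Eya3* (ENSMUSG00000028886, chr4:132638987-132724765, plus strand) supplied 89.7% to 98.5% of the summed Eya TPM in each library. Its counts were 721, 1848 and 1108 in control and 1522, 1956 and 388 in En5 libraries. The TPM were 4.71, 8.74 and 4.38 against 12.7, 20.4 and 3.0. Replicates 1 and 2 of En5 lay above all control libraries, and replicate 3 lay below all of them. *Eya3* stood above 56.1% to 78.6% of the genes listed in each library, which makes it the only member above the median of listed genes in 6 of 6 libraries. Its log2 fold change was 0.65 (standard error 0.48, 95% interval -0.40 to 1.69, edgeR adjusted p = 0.378) and 0.87 without En5 replicate 3 (edgeR adjusted p = 0.0871).

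*Eya1* (ENSMUSG00000025932, chr1:14168954-14310235, minus strand) had 38, 23 and 9 counts in control and 32, 16 and 51 in En5 libraries. The TPM of 0.179, 0.0787 and 0.0257 against 0.193, 0.121 and 0.285 overlapped. Its log2 fold change of 1.23 (standard error 1.00, 95% interval -0.96 to 3.42, edgeR adjusted p = 0.421) rested on En5 replicate 3, the library that stood apart, and was 0.14 without it.

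*Eya4* (ENSMUSG00000010461, chr10:23102963-23350786, minus strand), like *Eya1* a gene whose human counterpart is known from hearing loss, had 31, 22 and 18 counts in control and 76, 52 and 13 in En5 libraries. The TPM were 0.121, 0.0624 and 0.0427 against 0.381, 0.326 and 0.0603. Replicates 1 and 2 of En5 were above all control libraries, and replicate 3 was below control replicates 1 and 2. Its log2 fold change was 1.37 (standard error 0.85, 95% interval -0.49 to 3.22, edgeR adjusted p = 0.288). *Eya2* (ENSMUSG00000017897, chr2:165595032-165771727, plus strand) had 0 counts in 6 of 6 libraries, with the same limits as *Six2*.

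The order of levels per gene length was stable only at the top. *Eya3* ranked first in 6 libraries, *Six5* second in 4 and *Pax3* second in 2, namely En5 replicates 2 and 3. In control cells the means were 5.94 ± 2.43 TPM for *Eya3*, 2.19 ± 1.21 for *Six5*, 0.328 ± 0.193 for *Pax3*, 0.151 ± 0.0856 for *Six4*, 0.0946 ± 0.0780 for *Eya1* and 0.0755 ± 0.0409 for *Eya4* (SD, n = 3 each). In En5 cells they were 12.1 ± 8.73, 1.48 ± 0.982, 1.13 ± 0.689, 0.0609 ± 0.0719, 0.200 ± 0.0825 and 0.256 ± 0.171 TPM in the same order of genes (SD, n = 3 each). In control cells the ranges of 1 SD around the means overlapped between *Pax3* and *Six4*, *Six4* and *Eya1*, and *Eya1* and *Eya4*. In En5 cells they overlapped between *Six5* and *Pax3*, *Eya4* and *Eya1*, and *Eya1* and *Six4*. Such overlap is not a test of a difference between genes measured in the same libraries. *Six4* was above *Eya1* in each control library and below it in each En5 library. The other neighbours named changed places between libraries of the group.

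With both cutoffs, edgeR called 0 of 6 members lower and 0 of 6 higher, against 4.67% of the 14378 genes tested called lower and 1.52% higher. At an unadjusted p under 0.05 it found 1 of 6 members, *Pax3*, against 32.9% of all genes tested. With the replicate block it was again 0 members, against 6.79% of genes lower and 3.94% higher, and *Pax3* alone had an unadjusted p under 0.05. DESeq2 called 0 members as well, against 8.66% of genes lower and 5.88% higher, with *Pax3* again the only member at an unadjusted p under 0.05. Without En5 replicate 3, edgeR called 0 members where 14% of genes were lower and 11.7% higher, and 3 members (*Eya3*, *Eya4* and *Pax3*) had an unadjusted p under 0.05. Without En5 replicate 1 the only such member was *Six4*. Complete separation in TPM was met by 0 members, against 19.7% of all genes lower and 7.76% higher. Beside these shares, a count of 0 of 6 is not particular to the members. The median log2 fold change of the 6 tested members was 0.94, with 2 negative, beside a median of 0.08 over all genes tested.

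**Figure D2:**
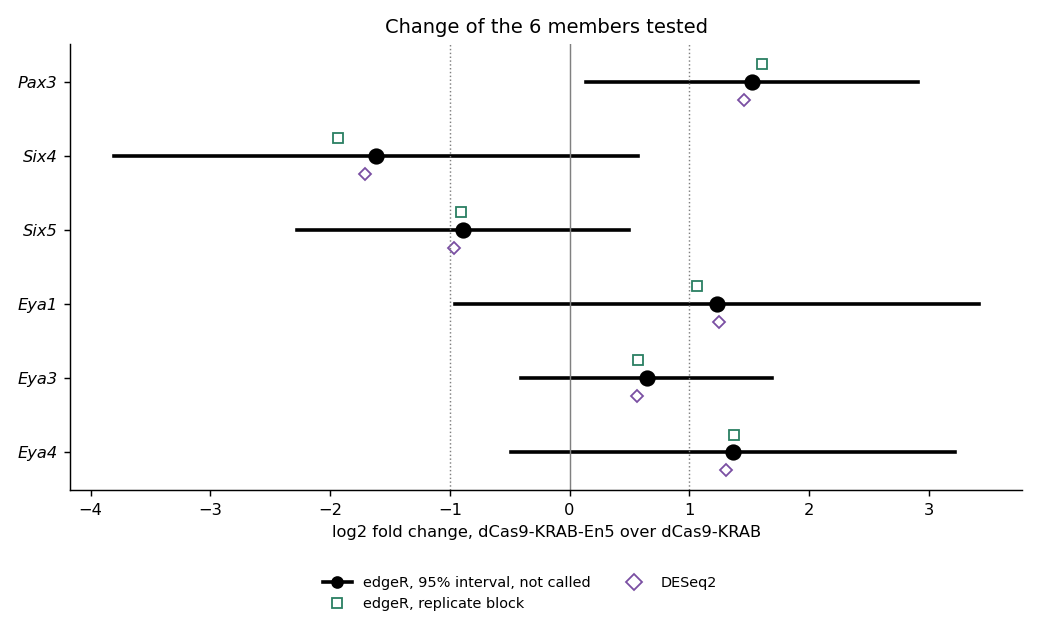
Log2 fold change (En5 over control) of the 6 members tested, with the edgeR estimate and its 95% interval, not adjusted for the number of genes, and the estimates with the replicate block (squares) and from DESeq2 (diamonds). Dotted lines mark a log2 fold change of 1 in size. Only the *Pax3* interval, 0.14 to 2.91, leaves out 0.

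Ratios between members within a library do not depend on how the library was scaled, and were computed after the levels had been seen. Of the 15 pairs among the 6 tested members, the groups did not overlap in 8, against 39.2% of all pairs of genes tested, and pairs that share a gene are not independent. The counts of *Pax3* were 34.5%, 32.6% and 26.1% of those of *Six5* in control and 93.9%, 222% and 256% in En5 replicates 1 to 3. They were 4.02%, 6.82% and 6.68% of those of *Eya3* in control and 9.07%, 9.97% and 17.8% in En5 libraries. Relative to either gene, *Pax3* was higher in each En5 library than in any control library. The two-sided exact permutation p was 0.1 for each, the smallest possible, and 0.178 after adjustment over 16 ratios. The ratio of *Pax3* to *Six4* was also higher in each En5 library. Its ratios to *Eya1* and *Eya4* overlapped between the groups. They differed by 0.36 and 0.24 in mean log2 ratio (exact permutation test, two-sided, p = 0.8 and 0.9).

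*Six5* lies beside a gene that was called lower. *Dmpk*, the myotonic dystrophy protein kinase gene, ends 772 bp before *Six5* on the same strand. Its counts were 4940, 19114 and 14975 in control and 70, 92 and 97 in En5 libraries, a log2 fold change of -6.31 (standard error 0.65, edgeR adjusted p = 0.000109). The counts of *Six5* were 1.70%, 2.02% and 1.89% of those of *Dmpk* in control and 210%, 95.7% and 27.8% in En5 libraries (exact permutation test on the log2 ratio, two-sided, p = 0.1, the smallest possible). The ratio was nearly constant among control libraries while both genes varied several-fold between them. Whether reads were counted by strand is unknown from the sources used here. Counting by strand would not separate reads of genes on the same strand, and whether these genes shared reads was not tested. Counts were not divided by gene length in these ratios, which serve only to compare libraries.

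**Figure D3:**
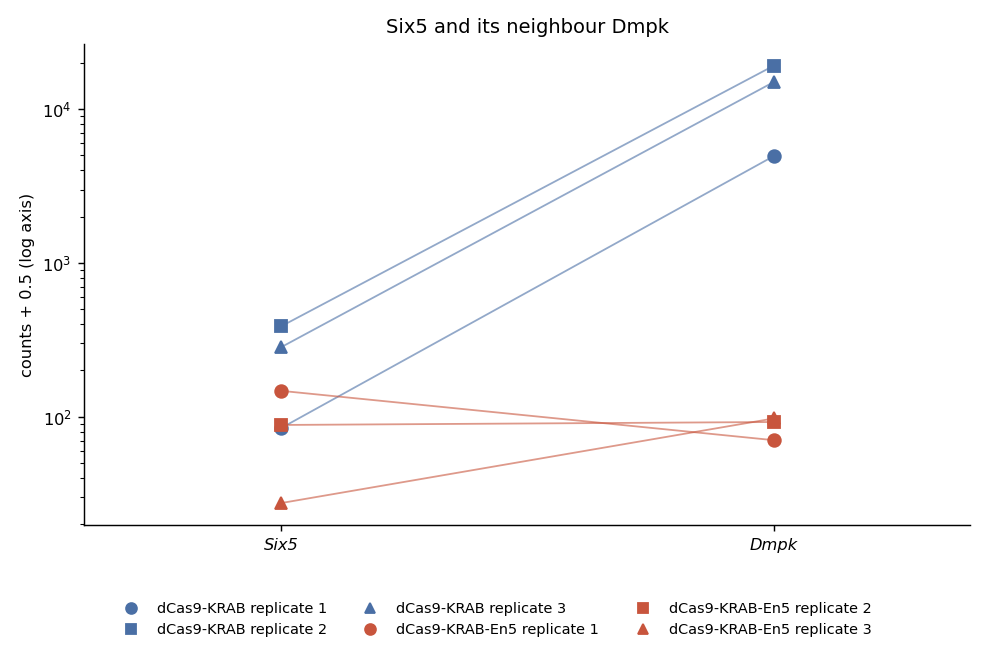
Counts (plus 0.5, log axis) of *Six5* with its neighbour *Dmpk*, each line joining the values of 1 library. *Dmpk* falls from 4940 or more counts in control (blue) to 97 or fewer in En5 (red) libraries while the *Six5* counts overlap.

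The bases just upstream of *Six5*, in the interval between *Dmpk* and *Six5*, and upstream of *Eya3*, the member with the highest level, are given because these members had the highest mean TPM in both groups. Both are from RefSeq (GRCm38.p6), on the plus strand, at chr7:19094294-19094543 and chr4:132638796-132638986, with CpG dinucleotides in capitals.
Six5 upstream: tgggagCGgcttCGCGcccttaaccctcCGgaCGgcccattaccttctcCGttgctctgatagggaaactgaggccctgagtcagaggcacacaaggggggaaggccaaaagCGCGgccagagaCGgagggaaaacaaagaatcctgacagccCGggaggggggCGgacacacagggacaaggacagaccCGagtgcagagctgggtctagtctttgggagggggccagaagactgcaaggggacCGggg
Eya3 upstream: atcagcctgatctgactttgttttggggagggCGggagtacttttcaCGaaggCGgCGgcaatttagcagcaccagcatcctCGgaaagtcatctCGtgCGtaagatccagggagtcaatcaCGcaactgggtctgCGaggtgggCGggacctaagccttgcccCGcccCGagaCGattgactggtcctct
The 300-base RefSeq promoter windows matched 6 of the 9 members. Their CpG counts were 17 for *Pax7*, 37 for *Six2*, 16 and 15 for *Six4* at its 2 listed starts, 17 for *Six5*, 25 for *Eya3*, and 36 and 28 for *Eya4* at its 2 listed starts, against a median of 7 (quartiles 3 to 20) over 32851 windows. *Six2*, with no counts, had more CpG in its window than *Eya3*, the most abundant member. On both strands, the E-box letters CAGCTG and CACCTG, found in 16.3% and 20.2% of all windows, were in none of these members' windows. The letters TCAGGTT of the MEF3 motif of muscle promoters, found in 4.07% of all windows, occurred in 1 window of *Six4*. A match describes letters in this window and is not a binding site.

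Among the lineage factors around the 9 members, *Msc* was lower and the others tested did not pass. *Mcrs1*, a widely expressed nuclear protein of the list of partners, had 24.8, 70.0 and 52.8 against 19.0, 29.1 and 23.0 TPM and a log2 fold change of -1.06 (edgeR adjusted p = 0.179). Over all genes tested, 4.67% were lower and the median log2 fold change was 0.08. Of 17 other premyogenic, head or limb lineage factors, 12 were listed and 7 tested, and 1 was lower (median log2 fold change -1.66). This was *Msc*, musculin, a head muscle factor, with 38, 79 and 62 counts in control and 0, 0 and 0 in En5 libraries, at least 11.7-fold lower against 3 counts per library (edgeR adjusted p = 0.0064). Its call was lost when any library but En5 replicate 3 was left out (edgeR adjusted p between 0.0207 and 0.0452). The *Msc* call was also lost with limma on log2(TPM + 1) (adjusted p = 0.0107). Without En5 replicate 3, 5 of 9 lineage factors tested were lower and 1 was higher (*Tcf7l2*), against 14% and 11.7% of all genes tested. *Lbx1*, a factor of migrating limb muscle progenitors, had 9, 26 and 28 counts in control and none in En5 libraries, and *Pitx3* had 6, 126 and 32 in control and none in En5 libraries. Both were below the filter of the test and were at least 3.90-fold and 9.73-fold lower against the same limit, the *Pitx3* bound being 3.44-fold without control replicate 2.

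Of 16 textbook targets of these upstream factors, 13 were tested, 5 were lower and 1 was higher, with a median log2 fold change of -0.93. Over all genes tested, 4.67% were lower and 1.52% higher, with a median of 0.08. *Myod1* had 1705, 7697 and 6598 counts in control and 3, 1 and 0 in En5 libraries, at least 972-fold lower (edgeR adjusted p = 1.82e-05). *Myf5* had 264, 198 and 215 against 1, 2 and 0 counts, at least 48.9-fold lower, a call lost only when control replicate 1 was left out (edgeR adjusted p = 0.0115). *Myog*, *Ckm* and *Tnni2* were the other 3 lower genes. Of these, *Myog* lies beside the targeted enhancer, so its call is not independent of the design. *Cxcr4*, a chemokine receptor of migrating progenitors and of blood cells, went the other way, with 7.85, 3.99 and 2.95 against 117, 152 and 14.4 TPM (log2 fold change 3.79, edgeR adjusted p = 0.00328), a call lost when control replicate 1, 2 or 3 was left out (edgeR adjusted p = 0.0183, 0.027 and 0.02). *Tnni2* was lost in 5 of 6 such fits (edgeR adjusted p between 0.0156 and 0.0568) and kept without En5 replicate 3. The *Tnni2* call was also lost with DESeq2 size factors and with upper quartile scaling, and the *Cxcr4* call in both limma fits. The count of lower targets was 3 without control replicate 1. *Ccnd1* and *Aldoa* had log2 fold changes of 0.31 and 0.30 and did not pass (edgeR adjusted p = 0.657 and 0.727).

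Of 17 satellite cell and myoblast markers, 15 were tested and 5 were lower (*Cd34*, *Des*, *Heyl*, *Ncam1* and *Vcam1*), with a median log2 fold change of -3.26. Over all genes tested, 4.67% were lower and 1.52% higher, with a median of 0.08. With the replicate block 8 were lower, the additional ones being *Cdh15*, *Itga7* and *Cd82*, against 6.79% of all genes tested. The count was 2 without control replicate 1, where *Cd34* and *Des* were also lost (edgeR adjusted p = 0.0178 and 0.0115). It was 12 without En5 replicate 3, where *Sdc4* was called higher. In that fit 14% of all genes tested were lower and 11.7% higher. *Vcam1*, an adhesion molecule of satellite cells, had 8.04, 10.8 and 8.19 against 1.20, 0.313 and 0.857 TPM (log2 fold change -3.46, edgeR adjusted p = 0.00496), a call lost when control replicate 1, 2 or 3 was left out (edgeR adjusted p = 0.0388, 0.0214 and 0.0123). With limma on log2 TPM, *Cd34* was lost with either pseudocount, and *Vcam1* and *Ncam1* with a pseudocount of 1. Both limma fits called *Cdh15* and *Itga7* lower. *Heyl*, a Notch target, had 229, 784 and 530 counts in control and none in En5 libraries, at least 96.8-fold lower. *Sdc4*, a satellite cell proteoglycan that many other cells make, had 37.9, 56.1 and 52.6 against 285, 350 and 43.0 TPM (log2 fold change 1.78, edgeR adjusted p = 0.0396), and it was called higher by DESeq2 (adjusted p = 0.00886). Whether the members differed in their response from these lists was not tested.

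**Figure D4:**
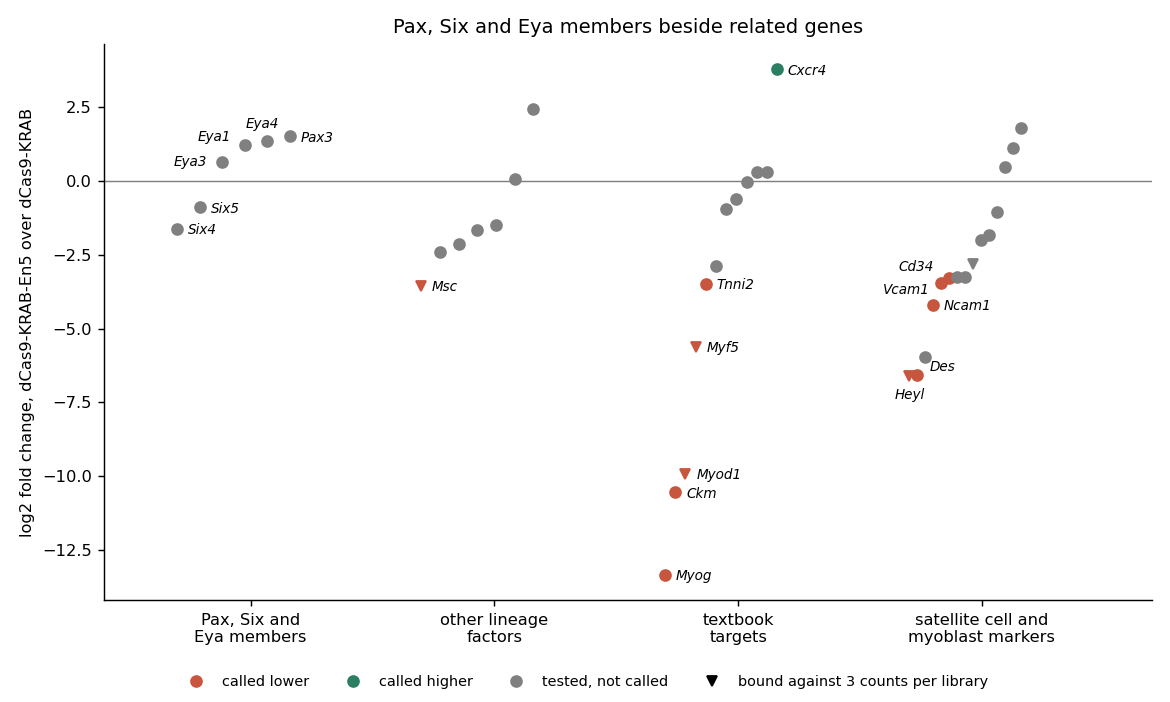
Log2 fold change (En5 over control) of each tested gene in 4 groups, with genes called lower in red, called higher in green and not called in grey, and triangles for genes with no more than 3 counts in any En5 library, drawn at their bound. The 6 tested members lie between -1.62 and 1.52, and *Myod1*, *Ckm* and *Myog* lie below them.

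The other genes described here that lie beside members did not pass the test. *Mnat1*, at 10260 bp from *Six4*, had a log2 fold change of -0.07 (edgeR adjusted p = 0.941). *Xkr8*, 131 bp from *Eya3* on the opposite strand, had a log2 fold change of -0.62 (edgeR adjusted p = 0.459), *Ptafr*, on its other side, -1.19 (edgeR adjusted p = 0.22), and *Zmynd8*, beside *Eya2*, 1.23 (edgeR adjusted p = 0.106). The annotation places 5 small noncoding genes or pseudogenes inside *Eya1*, *Eya2* and *Eya4*, of which 1 had counts.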

How the data were processed

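RNA-Seq of 6 libraries of C2C12 cells was used, 3 per group, grouped by the sample labels. The authors aligned the reads to GRCm38 with HISAT2 2.2.1, obtained counts per gene from featureCounts and deposited them unscaled. The authors also deposited TPM, which correct the counts for gene length and sum to 1000000 in a library. The annotation release and strand setting are not given in the sources used here. Genes absent from a library's list were taken as 0. Of 23231 genes, 23155 had a symbol.

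Counts were compared with edgeR 4.0.16 in R 4.3.3 (TMM, filterByExpr with a minimum count of 10 and total of 15, glmQLFit and glmQLFTest, Benjamini-Hochberg adjustment). Calls needed an adjusted p of 0.01 or less with a log2 fold change of 1 or more in size. DESeq2 1.42.0 and limma 3.58.1 on log2 TPM with a pseudocount of 1 or 0.1, other scalings and filters, and leaving out each library were alternatives. Single values were compared by exact permutation tests, which have 20 arrangements of 3 against 3. The fits were tested on simulated counts with the same dispersion for all genes, no replicate pairing and no library that stood apart. That test says nothing on data with such pairing or such a library. Where no En5 library had more than 3 counts, the fold is a lower bound, the mean control CPM over that of 3 counts per library.

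Same-numbered libraries deviated together from their group means, with correlations across genes of 0.319, 0.306 and 0.394, so the replicate number was also fitted as a block. Differently numbered ones had -0.46 to -0.08. Deviations from a group mean cancel within the group, so positive values for some pairs force negative ones for others. Replicates differed by more than sampling noise.

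The members and the gene lists were chosen with earlier results of these data known. Named genes are the 9 members, list genes that were called or had at least 10 TPM in a library, the nearest genes beside a member and *Myog*. *Lbx1*, *Pitx3* and the ratios were chosen after their values were seen. Guide sequences were matched to GRCm38, and gene positions are from its GENCODE annotation. Some results for genes beside or related to the members are not reported here.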

Additional observations from a re-analysis of the deposited data

How the results depend on the processing

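No setting called a member: 0 were lower and 0 higher in the main edgeR fit and under each of the 17 alternatives, and the adjusted p of the tested members lay between 0.0506 and 0.916. No tested member changed sign. The log2 fold change ranged over the alternatives from 0.64 to 1.95 for *Pax3*, -3.0 to -0.12 for *Six4*, -1.28 to -0.38 for *Six5*, 0.13 to 2.16 for *Eya1*, 0.30 to 0.90 for *Eya3* and 0.21 to 1.88 for *Eya4*. The count of differentially expressed genes, 890 in the main fit, was 2390 with DESeq2, 2198 with no filter on low counts, 1543 with the replicate block, 586 with total counts only, 514 with limma on log2(TPM + 1) and 2449 at an adjusted p of at most 0.05. Leaving out 1 library gave 222 (without dCas9-KRAB replicate 1) to 3921 genes (without dCas9-KRAB-En5 replicate 3). The replicate block changed no member's call. The calls of *Myog*, *Myod1*, *Ckm*, *Heyl* and *Dmpk* were kept in all alternatives. The causes of these differences were not tested. At this depth *Pax7*, *Six2* and *Eya2* could not be compared, and *Six4* rested on 3 to 72 counts per library.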
